A study of Mus musculus with 97 samples.

Results

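Mice given a mix of ampicillin, metronidazole, neomycin and vancomycin by intraperitoneal (IP) injection were compared with mice given only one of those drugs by the same route. The libraries were chosen by their labels: 26 of the 97 RNA-seq libraries of the series, all from whole colon. They were 6 libraries of the mix (Mix-IP), 6 of ampicillin (Ampicillin-IP), 4 of metronidazole (Metronidazole-IP), 6 of neomycin (Neomycin-IP) and 4 of vancomycin (Vancomycin-IP). The main comparison set the mean of Mix-IP against the mean of the 4 single-drug group means, so that each drug had equal weight, and each drug was then compared with the mix alone. A vehicle group, PBS-IP, had 4 libraries. All groups were C57BL6/J mice aged 8 to 12 weeks, housed specific-pathogen-free. Each antibiotic animal was given 2.5 mg in 100 µl of PBS, 2 times daily on 3 days with a last dose on day 4, and tissue was taken 4 h after that dose. How the 2.5 mg was divided among the drugs of the mix is not given in the sources used here, so the number of drugs and the amount of each drug cannot be told apart. The labels do not say whether replicate libraries are from separate animals, and every p-value here rests on variation among libraries that may be technical. Libraries are numbered by replicate, as in Mix-IP 4.

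Ampicillin and vancomycin block synthesis of the bacterial cell wall, metronidazole damages the DNA of anaerobic bacteria, and neomycin acts on the bacterial ribosome. In the intestine, interferons are cytokines made on sensing microbial nucleic acids and other microbial products. Type I and type III interferons induce antiviral genes, many of which carry a promoter motif called the interferon-stimulated response element (ISRE), while interferon gamma also induces the immunity-related GTPases. Colon epithelium also carries a circadian clock, in which BMAL1 (encoded by Arntl) and CLOCK drive target genes through E-box motifs.

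Colons of the mix had more mRNA of type I interferon-induced antiviral genes than colons of ampicillin, metronidazole or vancomycin, and were nearer to neomycin, whose levels were the highest of the 4 single drugs. The 2'-5' oligoadenylate synthetase gene Oas2, for example, had a mean of 66.7 ± 18.8 TPM (SD, n = 6) in Mix-IP, 5.53 ± 3.17 (SD, n = 6) in Ampicillin-IP and 170.1 ± 64.4 (SD, n = 6) in Neomycin-IP. TPM, the deposited unit, is a gene's length-scaled share of a library's transcripts. The clock gene Ciart was also higher in the mix than in the mean of the single drugs, but was at the level of PBS-IP (medians 21.1 and 20.3 TPM). Against the mean of the single drugs, 9 of 16 fibroblast genes and 2 of 20 smooth muscle genes were lower. Against vancomycin alone 15 and 18 were lower. Of all genes 2.87% were lower than in the mean of singles and 22.3% lower than in vancomycin. By distance between group means over all genes the mix was nearest to ampicillin and farthest from vancomycin, an order that did not hold with tissue composition scores as covariates. Measured library by library, with the spread within each single-drug group left in, the mean distance was 0.689 for ampicillin and 0.658 for neomycin. That difference was not called (exact permutation test, two-sided, p = 0.628). The test held the Mix-IP mean fixed, and it does not test the distance between group means.

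The libraries differed in the level of smooth muscle mRNA. A muscle score, the mean log2(TPM + 1) of 20 smooth muscle genes, ran from 7.52 to 10.7 in Mix-IP, 7.43 to 10.9 in Ampicillin-IP, 8.89 to 11 in Metronidazole-IP, 8.19 to 10.5 in Neomycin-IP, 10.4 to 11.2 in Vancomycin-IP and 8.20 to 9.02 in PBS-IP. Mix-IP 1 alone held the high end of its group, and every Vancomycin-IP library was above the 5 other Mix-IP libraries. A distal score, the same mean over 5 Hox genes of distal colon, had a median of 1.77 in Mix-IP (1.24 to 5.50), against 2.89 in Ampicillin-IP, 3.44 in Metronidazole-IP, 4.25 in Neomycin-IP and 4.06 in Vancomycin-IP. Mitochondrially encoded genes took 27.5% of TPM in Mix-IP 3 and 5.69% to 14.2% in the other Mix-IP libraries. Vancomycin-IP 2, 3 and 4 and PBS-IP 3 and 4 were among 12 libraries placed at the end of the deposited table, which the labels do not call a batch. The depth of each library is unknown, since TPM carries no read total.

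**Figure D1:**
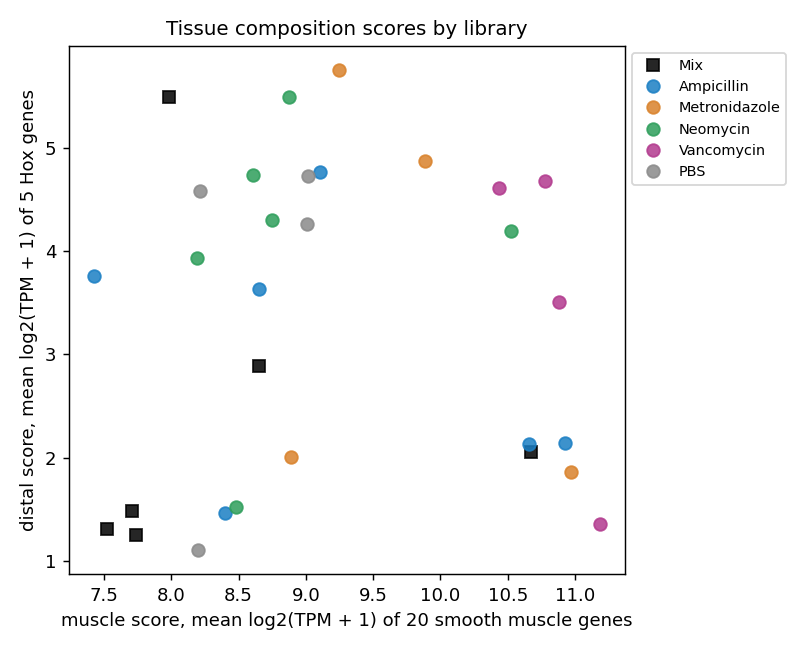
Muscle score (horizontal axis, mean log2(TPM + 1) of 20 smooth muscle genes) against distal score (vertical axis, mean log2(TPM + 1) of 5 Hox genes), 1 point per intraperitoneal library. The 4 Vancomycin-IP libraries have muscle scores of 10.4 to 11.2, and Mix-IP 2, 4 and 5 lie together at low values of both scores.

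Over all 17083 tested genes, Mix-IP differed from the mean of the 4 single drugs in 571 (3.34%) at an adjusted p under 0.05, 81 higher (0.474%) and 490 lower (2.87%). Against each drug alone, 55 genes differed from Ampicillin-IP (0.322%), with 47 higher (0.275%) and 8 lower (0.0468%). From Metronidazole-IP 81 differed (0.474%), with 46 higher (0.269%) and 35 lower (0.205%), from Neomycin-IP 18 (0.105%), all lower, and from Vancomycin-IP 4883 (28.6%), with 1080 higher (6.32%) and 3803 lower (22.3%). The 4 comparisons share the Mix-IP libraries, and the groups of 4 libraries give less precision than those of 6. The median difference over all genes was -0.12 on the log2(TPM + 1) scale for the mean of singles, and 0.01 after quantile normalization, under which 90 genes were higher and 32 lower. The medians were -0.07 for ampicillin, -0.13 for metronidazole, -0.11 for neomycin and -0.14 for vancomycin. Differences of genes below are on the same log2 scale. With mitochondrial genes removed and TPM rescaled, the main split was 85 higher and 73 lower. Quantile normalization gave 47 higher and 2 lower for ampicillin, 85 and 14 for metronidazole, 2 and 9 for neomycin and 2203 and 2446 for vancomycin. The mitochondrial rescaling gave 111 and 33 for metronidazole and 1523 and 3234 for vancomycin. With the muscle and distal scores as covariates, 27 genes differed from the mean of singles, 18 of them among the 571, and 15 from Vancomycin-IP. Without the 12 libraries at the end of the table, 174 differed from the mean of singles and 13 from Vancomycin-IP, which then had 1 library. Against the mean of ampicillin, metronidazole and neomycin only, 13 genes differed.

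Single libraries moved these counts. Against the mean of singles the count was 19 without Mix-IP 4, 22 without Mix-IP 2, 57 without Mix-IP 5, 58 without Mix-IP 3, 177 without Metronidazole-IP 4, 206 without Metronidazole-IP 3, 286 without Neomycin-IP 5, 321 without Ampicillin-IP 4, 341 without Vancomycin-IP 1, 348 without Ampicillin-IP 5, 1221 without Metronidazole-IP 2, 1285 without Ampicillin-IP 6, 1369 without Mix-IP 6 and 2753 without Mix-IP 1. For Metronidazole-IP it was 13 without Metronidazole-IP 4, 14 without Metronidazole-IP 3, 21 without Mix-IP 4, 26 without Mix-IP 2, 46 without Mix-IP 5, 204 without Mix-IP 6, 378 without Metronidazole-IP 2 and 630 without Mix-IP 1. For Neomycin-IP it was 4 without Mix-IP 3, 4 without Neomycin-IP 3, 4 without Neomycin-IP 4, 8 without Mix-IP 4, 8 without Neomycin-IP 2, 11 without Mix-IP 2, 29 without Mix-IP 1, 36 without Neomycin-IP 5, 80 without Neomycin-IP 1 and 537 without Mix-IP 6. For Vancomycin-IP it was 2739 without Vancomycin-IP 2, 3092 without Vancomycin-IP 1 and 3249 without Mix-IP 2. No single library moved the Ampicillin-IP count by more than 1.5 times, and it ran from 39 to 78.

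Which single drug the mix resembled was measured as the root mean square (RMS) difference of group means over all tested genes, in log2(TPM + 1), less the part expected from spread within groups. This distance was 0.131 to Ampicillin-IP, 0.292 to Neomycin-IP, 0.429 to Metronidazole-IP and 0.776 to Vancomycin-IP, beside 0.319 to PBS-IP. Ampicillin was nearest and vancomycin farthest in 32 of 33 settings. Of these settings 26 left out 1 library each, and only the rest changed the measure, the processing or a larger set of libraries. The exception took the muscle and distal scores as covariates, under which the distances were 0.200 to Neomycin-IP, 0.218 to Vancomycin-IP, 0.235 to Ampicillin-IP and 0.245 to Metronidazole-IP. Leaving out Ampicillin-IP 1, Mix-IP 2, Mix-IP 4 or Mix-IP 5 put the distance to Ampicillin-IP at 0, leaving out Ampicillin-IP 3 at 0.0475, and leaving out Ampicillin-IP 6, Mix-IP 1 or Mix-IP 6 at 0.262, 0.266 and 0.273. Here 0 is a floor, set where the part expected from spread was larger than the observed part. It does not mean that the group means were equal.

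Measured library by library, the RMS distance to the Mix-IP mean was 0.689 ± 0.0772 (SD, n = 6) for Ampicillin-IP and 0.658 ± 0.128 (SD, n = 6) for Neomycin-IP. It was 0.789 ± 0.272 (SD, n = 4) for Metronidazole-IP, 0.962 ± 0.119 (SD, n = 4) for Vancomycin-IP and 0.648 ± 0.126 (SD, n = 4) for PBS-IP. This distance includes each library's own departure from its group mean, which the distance between group means leaves out, so the orders need not be the same. The permutations moved single-drug libraries only and held the Mix-IP mean fixed. Their p-values therefore carry no spread among Mix-IP libraries. Vancomycin-IP libraries were farther than Ampicillin-IP libraries (exact permutation test, two-sided, p = 0.00952, adjusted p = 0.0429 over 6 pairs) and farther than Neomycin-IP libraries (exact p = 0.0143, adjusted p = 0.0429). Between Ampicillin-IP and Neomycin-IP the difference was 0.0315 (exact p = 0.628), which this test did not call, and the 3 other pairs had adjusted p of 0.529 to 0.571. The ampicillin call was lost without Ampicillin-IP 2 or 5 or Vancomycin-IP 1 or 3 (adjusted exact p = 0.0714) or Vancomycin-IP 2 (0.107). The neomycin call was lost without Neomycin-IP 1, 2, 3, 4 or 6 or Vancomycin-IP 1 or 3 (adjusted exact p = 0.0714) or Vancomycin-IP 2 (0.107). With both scores as covariates no pair differed (adjusted exact p = 0.829). Taken singly, Mix-IP 2, 3, 4 and 5 were nearest to the Ampicillin-IP mean, Mix-IP 6 to Neomycin-IP and Mix-IP 1, the library with the high muscle score, to Vancomycin-IP. With covariates Mix-IP 1 and 6 were nearest to Ampicillin-IP, Mix-IP 2 and 3 to Neomycin-IP and Mix-IP 4 and 5 to Vancomycin-IP.

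**Figure D2:**
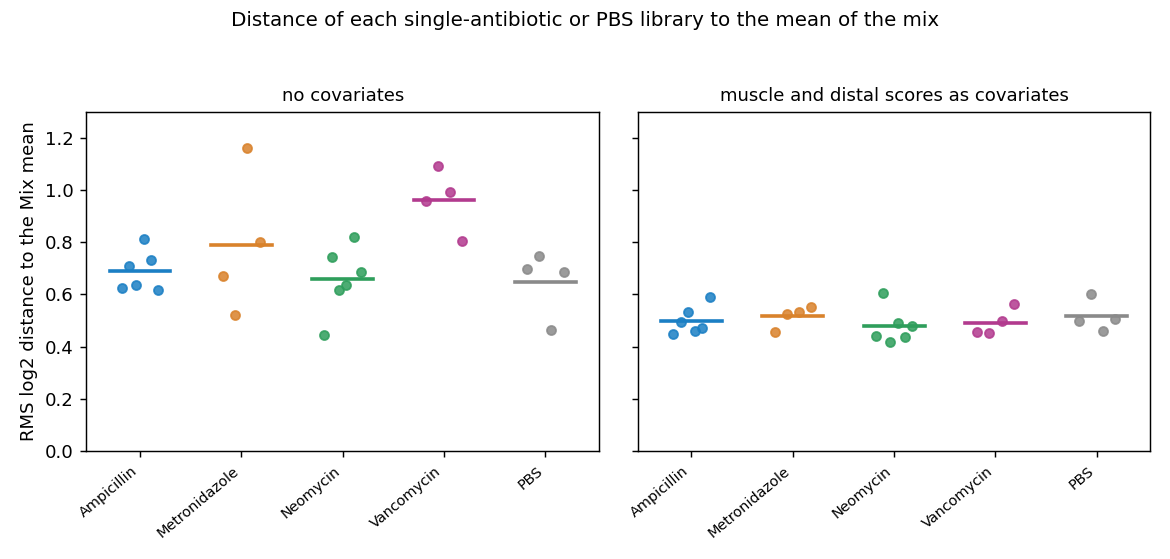
RMS log2 distance of each single-drug or PBS library to the Mix-IP mean (vertical axis), without covariates on the left and with muscle and distal scores as covariates on the right; bars are group means. On the left Vancomycin-IP averages 0.962 and Ampicillin-IP 0.689, and on the right the groups overlap.

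The answer depended on the measure. Of 47 gene lists, the smallest absolute median difference from the mix was to Ampicillin-IP in 19, Metronidazole-IP in 12, Neomycin-IP in 10 and Vancomycin-IP in 6. The largest was to Vancomycin-IP in 26 lists, Neomycin-IP in 16, Metronidazole-IP in 5 and Ampicillin-IP in 0. With covariates the smallest was to Ampicillin-IP in 21, Metronidazole-IP in 11, Neomycin-IP in 9 and Vancomycin-IP in 6, and the largest in 10, 10, 13 and 14. By number of called genes neomycin was nearest, with 18. That order turned with covariates, which gave 68 for neomycin, 47 for metronidazole and 15 for vancomycin, and without Mix-IP 6, which gave 537 for neomycin. By number of genes at an unadjusted limma p under 0.05 ampicillin was nearest, with 946. That number was 2141 for neomycin, 3352 for metronidazole and 6957 for vancomycin. For type I interferon genes ampicillin, metronidazole and vancomycin were farther than neomycin, with a median of -0.81 against 1.60, 1.39 and 1.72 for ampicillin, metronidazole and vancomycin.

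**Figure D3:**
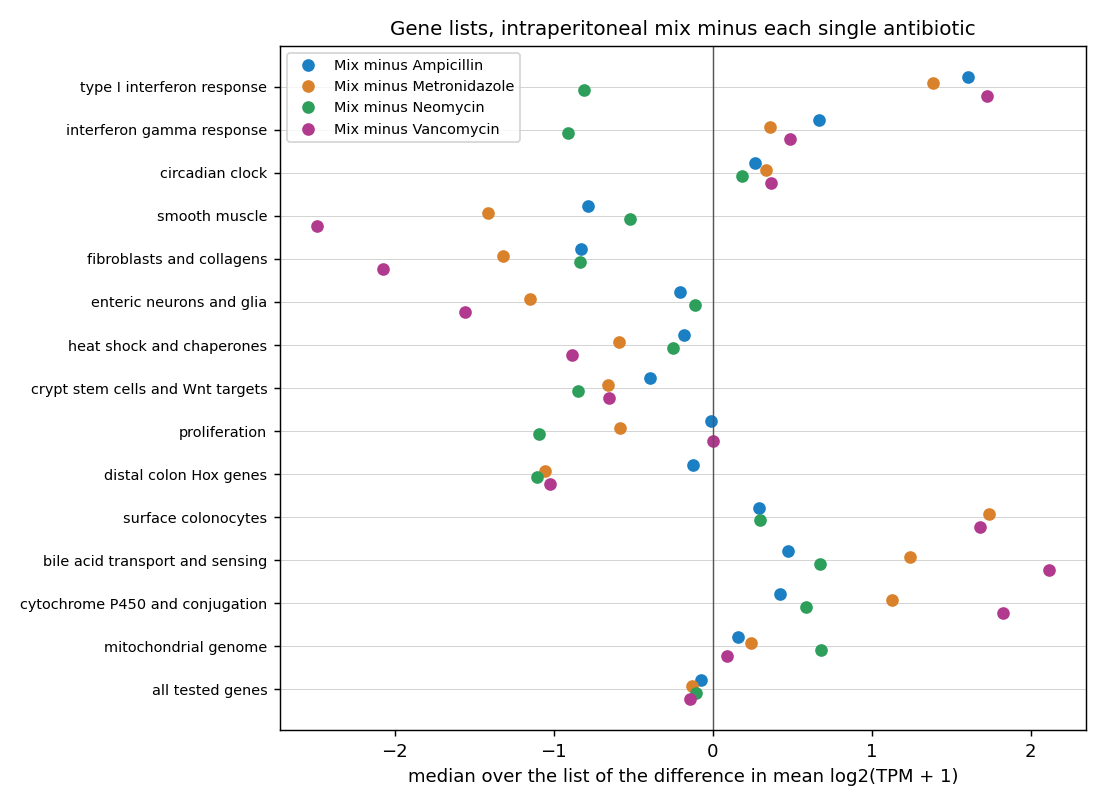
Median difference of 14 gene lists and of all tested genes (horizontal axis, log2(TPM + 1) scale), Mix-IP minus each single drug, 1 point per drug. Type I interferon medians lie at 1.60, 1.39 and 1.72 for ampicillin, metronidazole and vancomycin and at -0.81 for neomycin, and the smooth muscle median for vancomycin is -2.49.

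Of 30 tested type I interferon-induced genes, 18 rose against the mean of singles (median 0.94) and 0 fell. Against Ampicillin-IP 22 rose (median 1.60), against Metronidazole-IP 12 (median 1.39) and against Vancomycin-IP 24 (median 1.72), while 2 fell against Neomycin-IP (median -0.81). Of all tested genes 0.474% rose against the mean of singles, 0.275% against Ampicillin-IP and 0.269% against Metronidazole-IP. Against Vancomycin-IP 6.32% of all genes rose, and against Neomycin-IP 0.105% fell. The list's mean log2(TPM + 1) per library was 5.24 to 6.04 in Mix-IP and 5.76 to 7.16 in Neomycin-IP. It was 3.35 to 4.40 in Ampicillin-IP, 3.45 to 4.64 in Metronidazole-IP and 3.43 to 4.55 in Vancomycin-IP, none of which reached the lowest Mix-IP library. The count of 18 was 5 without Mix-IP 2 or Mix-IP 4, 8 without Mix-IP 5, 10 without Mix-IP 3, 11 without Metronidazole-IP 3 and 6 without the 12 libraries at the end of the table. The metronidazole count of 12 was 4 without Metronidazole-IP 3, 7 without Metronidazole-IP 4, 19 without Metronidazole-IP 2 and 23 without Mix-IP 1. The neomycin count of 2 was 1 without Mix-IP 1, 3 or 4 or Neomycin-IP 2, 3 or 4, and 11 without Mix-IP 6. No single library moved the ampicillin or vancomycin count by more than 1.5 times. With muscle and distal scores as covariates the list's count against the mean of singles was 2 (median 0.53). It was 22 for Ampicillin-IP, 7 for Metronidazole-IP and 3 for Vancomycin-IP, and 13 were lower for Neomycin-IP. That fit called 8 of all 17083 tested genes higher against the mean of singles. Of all genes it called 58 higher for Ampicillin-IP, 18 for Metronidazole-IP and 7 for Vancomycin-IP, and 66 lower for Neomycin-IP. The part of tissue composition in the differences of the type I list was not tested further.

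Oas2, which makes the 2'-5' oligoadenylate that activates RNase L, had 44.8 to 93.5 (median 71.1) TPM in Mix-IP, 2.65 to 9.69 (median 4.73) in Ampicillin-IP and 72.4 to 269 (median 163) in Neomycin-IP. In Metronidazole-IP it had 3.85, 17.3, 3.25 and 4.58 TPM, in Vancomycin-IP 7.24, 5.60, 3.16 and 2.0 and in PBS-IP 8.57, 3.74, 57.3 and 3.00. Every Mix-IP library was above every ampicillin, metronidazole and vancomycin library, and the Mix-IP and Neomycin-IP ranges overlapped. The difference in mean log2(TPM + 1) was 2.28 (SE 0.47, adjusted p = 0.00506) against the mean of singles. It was 3.47 (SE 0.58, adjusted p = 5.79e-05) against Ampicillin-IP, 3.27 (SE 0.65, adjusted p = 0.00487) against Metronidazole-IP, 3.68 (SE 0.65, adjusted p = 0.000232) against Vancomycin-IP and -1.29 (SE 0.58, adjusted p = 0.338) against Neomycin-IP. The metronidazole call was lost without Metronidazole-IP 3 (adjusted p = 0.0541), and with covariates the difference from the mean of singles was 1.42 (adjusted p = 0.0894). The vancomycin call was lost with covariates (2.37, adjusted p = 0.0670) and without the libraries at the end of the table. Reads of the related Oas genes may be shared between them, so the level of each alone is uncertain.

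Isg15, a ubiquitin-like protein coupled to other proteins after interferon, had 36.0 to 84.0 (median 59.1) TPM in Mix-IP, 3.24 to 11 (median 6.2) in Ampicillin-IP and 61.3 to 326 (median 195) in Neomycin-IP. The Metronidazole-IP libraries had 25.9, 20.6, 3.56 and 19.9 and the Vancomycin-IP libraries 16.3, 4.69, 3.15 and 3.77. All Mix-IP libraries were above those of these 3 drugs. Neomycin-IP 5 and PBS-IP 3, at 58.7 TPM, lay within the Mix-IP range. Against the mean of singles Isg15 rose by 1.55 (SE 0.42, adjusted p = 0.0343), a call lost without Metronidazole-IP 3 or Mix-IP 2, 3, 4 or 5 (adjusted p up to 0.169). Against Metronidazole-IP the difference was 1.86 (SE 0.58, adjusted p = 0.0917). Ifit1, which binds viral RNA lacking the host cap structure, had 101 to 244 (median 178) TPM in Mix-IP and 5.74 to 47.8 (median 23.7) in Ampicillin-IP. Its difference from the mean of singles was 1.85 (SE 0.41, adjusted p = 0.00900), lost without Mix-IP 2 or 4 (adjusted p up to 0.0812). Mix-IP and Ampicillin-IP did not overlap for Ifit1.

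Other members differed in the same direction. Oasl2, an oligoadenylate synthetase-like protein, rose by 1.97 (SE 0.35, adjusted p = 0.000822) against the mean of singles, Ifi44 by 1.66 (SE 0.33, adjusted p = 0.00296) and Xaf1, a pro-apoptotic protein, by 1.20 (SE 0.19, adjusted p = 9.16e-05). These 3 calls held when any 1 library was left out, with adjusted p up to 0.0120, 0.0350 and 0.00262. Oas3 rose by 2.71 (SE 0.57, adjusted p = 0.00605), lost without Mix-IP 2 or 4 (adjusted p up to 0.0520). The near-identical Apol9a and Apol9b, whose reads cannot be assigned to one copy with certainty, rose by 2.25 and 2.14 (adjusted p = 0.00506 and 0.00127). With covariates Oasl2 and Xaf1 stayed called (adjusted p = 0.0207 and 0.00661), and Oas3, Ifi44, Apol9a and Apol9b were not (adjusted p = 0.0774, 0.0612, 0.0692 and 0.0508). Without the 12 libraries at the end of the table these 6 and Oas2 stayed called against the mean of singles, and Isg15 and Ifit1 were not called.

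Several interferon-induced genes were lower in the mix than in neomycin. Ifi27l2a, an interferon-induced membrane protein, had 13.3 to 27.5 (median 19.1) TPM in Mix-IP and 53.3 to 179 (median 113) in Neomycin-IP, against 4.04 to 10.5 (median 5.15) in Ampicillin-IP. Metronidazole-IP had 7.69, 9.55, 10.3 and 13.7 TPM, Vancomycin-IP 14.3, 8.29, 10.9 and 8.87 and PBS-IP 6.74, 10.2, 10.2 and 10.2. Every Mix-IP library was below every Neomycin-IP library. All but Mix-IP 2 were above every ampicillin, metronidazole, vancomycin and PBS library. Ifi27l2a fell by 2.33 on the log2 scale against Neomycin-IP (SE 0.31, adjusted p = 7.58e-07) and rose by 1.56 (SE 0.31, adjusted p = 0.00129) against Ampicillin-IP, and neither call was lost when 1 library was left out.

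Of 26 tested interferon gamma-induced genes, 4 fell against Neomycin-IP (median -0.91), 5 rose against Ampicillin-IP (median 0.67), 7 rose and 1 fell against Vancomycin-IP (median 0.49), and 1 rose against the mean of singles (median 0.25). Of all tested genes 0.105% fell against Neomycin-IP and 0.275% rose against Ampicillin-IP. Against Vancomycin-IP 6.32% of all genes rose and 22.3% fell, and against the mean of singles 0.474% rose. The neomycin count of 4 was 1 without Mix-IP 3 or Neomycin-IP 2, 3 or 4, 2 without Mix-IP 2, 4 or 5 and 10 without Mix-IP 6. The vancomycin count of 7 was 3 without Vancomycin-IP 2 and 4 without Vancomycin-IP 4. Irgm2, an immunity-related GTPase, had 27.3 to 56.4 (median 41.0) TPM in Mix-IP, 56.6 to 101 (median 79.5) in Neomycin-IP and 13.5 to 29.4 (median 19.5) in Ampicillin-IP. The mix and neomycin ranges for Irgm2 did not overlap. Irgm2 fell by 1.00 against Neomycin-IP (SE 0.19, adjusted p = 0.00396), and this call held without any 1 library. Igtp and Gbp3, further interferon-induced GTPases, fell by 1.02 and 1.298 (adjusted p = 0.0139 and 0.0163), and Bst2, which tethers budding virus to the cell, by 1.38 (adjusted p = 0.0194). Their calls were lost without Neomycin-IP 2, 3 or 4 or Mix-IP 3, for Bst2 also without Mix-IP 1 or 4 and for Gbp3 without Mix-IP 2, 4 or 5 (adjusted p up to 0.0960, 0.115 and 0.154). With the intraperitoneal groups fitted alone the neomycin calls of Irgm2, Igtp, Gbp3 and Bst2 were lost and that of Ifi27l2a was kept. Irgm1, a further member of the family, rose by 0.70 (SE 0.18, adjusted p = 0.0272) against the mean of singles, lost without Mix-IP 2, 4 or 5 (adjusted p up to 0.165).

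**Figure D4:**
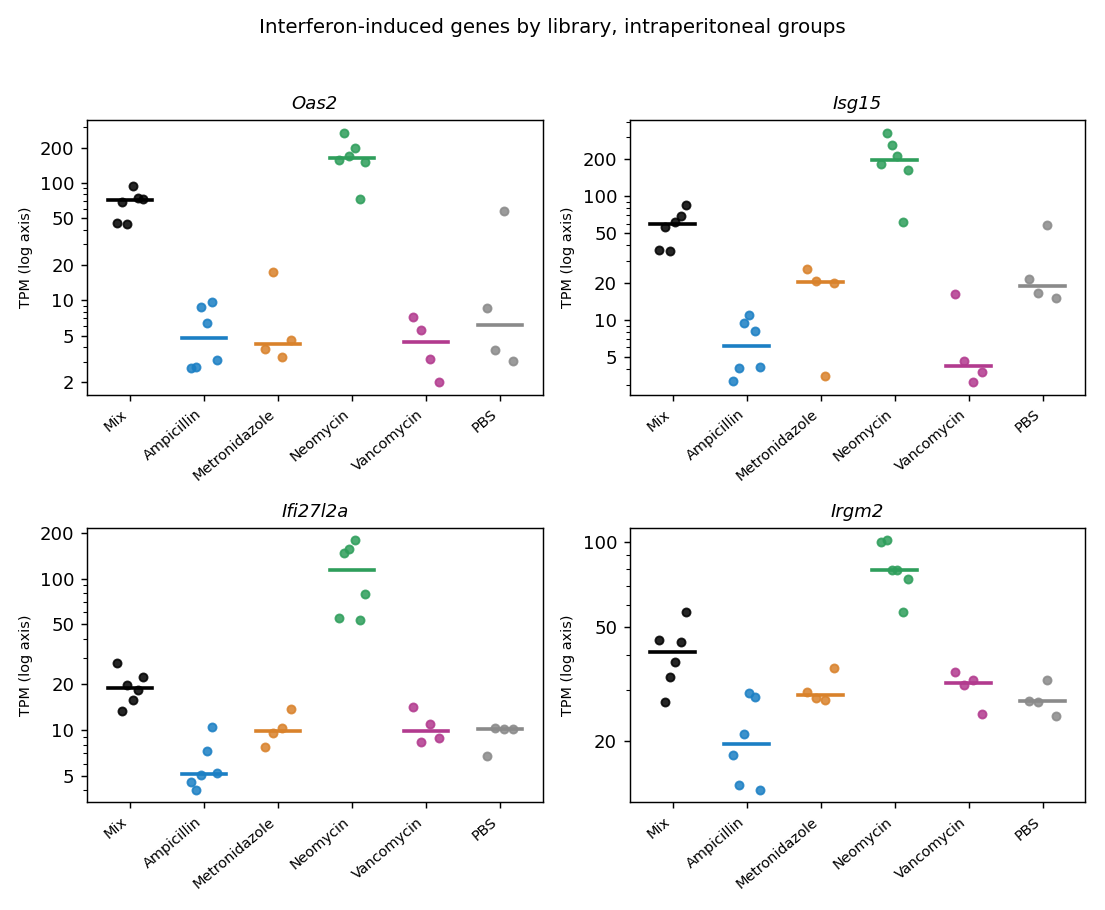
TPM (vertical axis, logarithmic) of Oas2, Isg15, Ifi27l2a and Irgm2 in each intraperitoneal library, with bars at group medians. Mix-IP medians of 71.1, 59.1, 19.1 and 41.0 TPM lie between the Ampicillin-IP medians of 4.73, 6.2, 5.15 and 19.5 and the Neomycin-IP medians of 163, 195, 113 and 79.5.

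The promoters of 4 of these genes are shown because genes induced by interferon are known to be bound at the ISRE. The motif searched was TTTC, any 2 bases, then TTTC, on both strands (GAAA, any 2 bases, GAAA on the other), in the 250 bases before each gene start. Matches may overlap one another. Sequences are from RefSeq on GRCm38.p6, whereas the submitters name GRCm39, so coordinates are of the earlier build. They are written 5′ to 3′ on the gene's strand, with matches in capitals.
Isg15 (chr4:156200819-156201068, minus strand): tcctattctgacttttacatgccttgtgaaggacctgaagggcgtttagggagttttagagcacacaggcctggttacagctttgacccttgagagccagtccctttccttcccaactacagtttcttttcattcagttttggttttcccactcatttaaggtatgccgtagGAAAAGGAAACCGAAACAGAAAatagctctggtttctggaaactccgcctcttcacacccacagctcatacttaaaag
Ifit1 (chr19:34640639-34640888, plus strand): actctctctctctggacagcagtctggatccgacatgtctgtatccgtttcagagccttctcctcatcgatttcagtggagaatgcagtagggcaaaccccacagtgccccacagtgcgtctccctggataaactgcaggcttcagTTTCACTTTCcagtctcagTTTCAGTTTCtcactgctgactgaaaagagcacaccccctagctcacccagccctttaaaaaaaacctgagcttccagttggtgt
Irgm2 (chr11:58214727-58214976, plus strand): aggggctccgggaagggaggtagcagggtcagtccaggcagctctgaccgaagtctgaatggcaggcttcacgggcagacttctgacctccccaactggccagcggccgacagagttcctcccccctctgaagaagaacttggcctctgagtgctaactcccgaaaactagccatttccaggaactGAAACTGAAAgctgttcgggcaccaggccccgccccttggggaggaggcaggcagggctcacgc
Bst2 (chr8:71537473-71537722, minus strand): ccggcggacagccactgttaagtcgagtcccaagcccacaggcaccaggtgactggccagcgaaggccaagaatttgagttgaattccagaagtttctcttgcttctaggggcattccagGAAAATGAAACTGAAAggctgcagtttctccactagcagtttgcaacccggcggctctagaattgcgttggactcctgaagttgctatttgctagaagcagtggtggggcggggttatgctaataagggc
Isg15 had 3 overlapping matches, Ifit1 and Bst2 2 each and Irgm2 1. Of 32851 promoters of this length, 978 held a match (2.98%), beside 9 of 21 matched entries of the type I list (42.9%) and 11 of 19 of the interferon gamma list (57.9%). A match describes letters only and was not tested for binding.

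Ciart, which represses CLOCK and BMAL1, had 9.31 to 29.7 (median 21.1) TPM in Mix-IP, 2.71 to 6.23 (median 3.77) in Ampicillin-IP and 4.13 to 11.9 (median 6.98) in Neomycin-IP. Metronidazole-IP had 9.44, 16.4, 10.4 and 2.65 TPM, Vancomycin-IP 1.88, 5.04, 2.0 and 1.39 and PBS-IP 32.8, 21.9, 13.8 and 18.6. All Mix-IP libraries were above all ampicillin and vancomycin libraries, and PBS-IP was at the level of the mix. Ciart rose by 1.81 (SE 0.31, adjusted p = 0.000329) against the mean of singles, 2.07 (SE 0.38, adjusted p = 0.000451) against Ampicillin-IP and 2.64 (SE 0.43, adjusted p = 7.45e-05) against Vancomycin-IP. The first of these held without any 1 library (adjusted p up to 0.00751) and with covariates (1.55, adjusted p = 0.00661). Against Metronidazole-IP the difference was 1.16 (SE 0.43, adjusted p = 0.147), against Neomycin-IP 1.37 (SE 0.38, adjusted p = 0.109) and against PBS-IP -0.07 (SE 0.43, adjusted p = 0.975). The hour at which tissue was taken is not given in the sources used here, so clock time and treatment cannot be told apart.

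Of 21 clock genes, 2 rose against the mean of singles (median 0.32), 2 rose and 1 fell against Ampicillin-IP (median 0.27), and 7 rose and 4 fell against Vancomycin-IP (median 0.37), where 6.32% of all genes rose and 22.3% fell. The 4 of 21 that fell are a share near that of all genes. Of all genes 0.474% rose against the mean of singles, and 0.275% rose and 0.0468% fell against Ampicillin-IP. Against the mean of singles 6 rose without Mix-IP 1, 5 without Ampicillin-IP 6 or Metronidazole-IP 2 and 4 without Ampicillin-IP 2, Metronidazole-IP 1 or Mix-IP 6. Only 1 rose without Ampicillin-IP 4, Metronidazole-IP 3 or 4, Mix-IP 2, 3, 4 or 5, Neomycin-IP 5 or Vancomycin-IP 1 or 4. Dbp, a clock output factor, had 67.2 to 215 (median 148) TPM in Mix-IP and 14.4 to 66.2 (median 30.0) in Ampicillin-IP, ranges that did not overlap. Dbp rose by 1.99 (SE 0.44, adjusted p = 0.0113) against Ampicillin-IP, lost without Ampicillin-IP 1 or 3 (adjusted p up to 0.0738), and by 1.58 (SE 0.50, adjusted p = 0.0140) against Vancomycin-IP. Arntl, which encodes BMAL1, had 4.52 to 26.3 (median 9.26) TPM in Mix-IP and 28.7 to 52.0 (median 40.9) in Ampicillin-IP, again without overlap. It fell by 1.74 (SE 0.42, adjusted p = 0.0297), a call lost without any of Ampicillin-IP 1 to 5 or Mix-IP 1, 2, 4 or 5 (adjusted p up to 0.212). Nfil3, a repressor opposed to Dbp, had 2.25 to 4.85 (median 4.10) TPM in Mix-IP and 21.1, 9.46, 14.4 and 30.2 in Vancomycin-IP. These did not overlap, and Nfil3 fell by 1.92 against Vancomycin-IP (SE 0.32, adjusted p = 0.000148), while Bhlhe40, a repressor of the E-box, rose by 1.46 (SE 0.34, adjusted p = 0.00269). The vancomycin calls of Ciart, Dbp, Nfil3 and Bhlhe40 were lost without the libraries at the end of the table. With covariates those of Dbp and Bhlhe40 were lost (adjusted p = 0.0681 and 0.354) and that of Nfil3 was kept (0.0120).

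**Figure D5:**
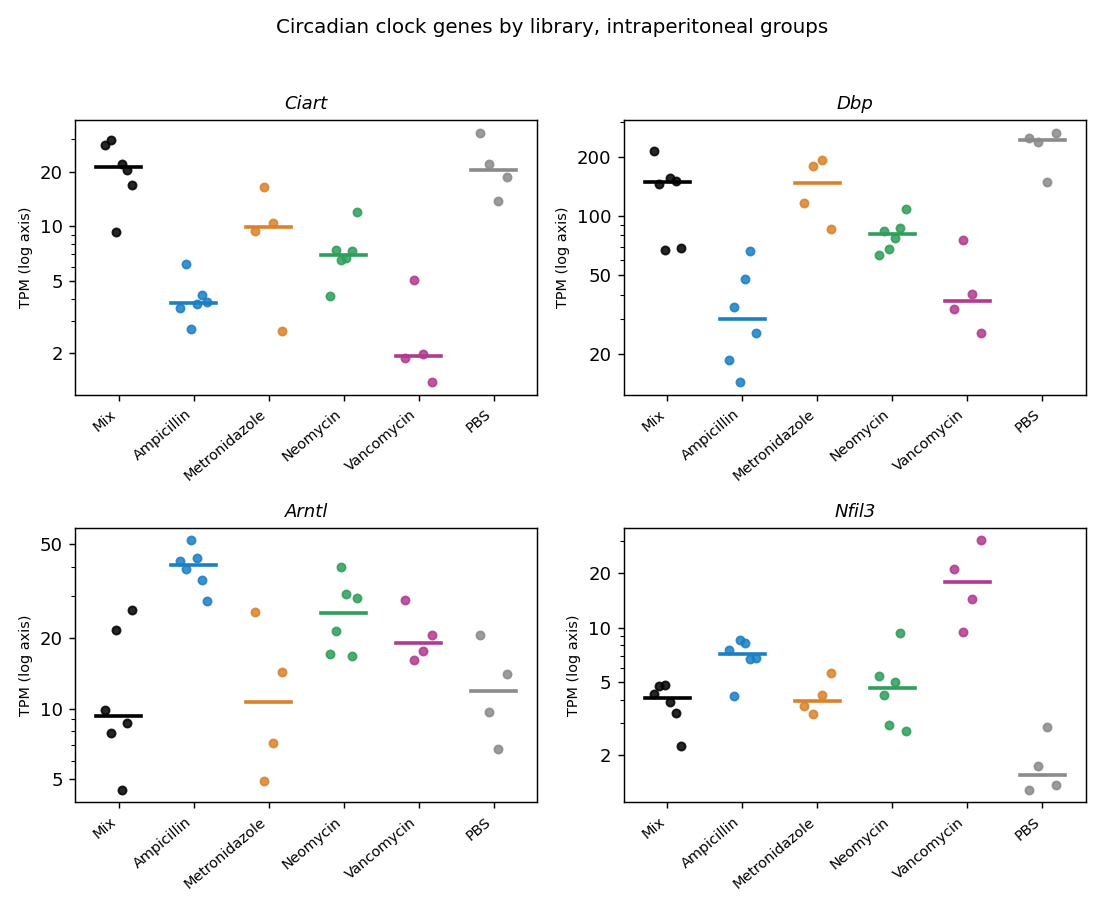
TPM (vertical axis, logarithmic) of the clock genes Ciart, Dbp, Arntl and Nfil3 in each intraperitoneal library, with bars at group medians. Median Ciart is 21.1 TPM in Mix-IP and 20.3 in PBS-IP, against 3.77 in Ampicillin-IP and 1.94 in Vancomycin-IP.

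The Ciart promoter is shown for its E-boxes, the motif of CLOCK and BMAL1, written as above with CACGTG in capitals. This motif reads the same on both strands and no match overlapped another.
Ciart (chr3:95882229-95882478, minus strand): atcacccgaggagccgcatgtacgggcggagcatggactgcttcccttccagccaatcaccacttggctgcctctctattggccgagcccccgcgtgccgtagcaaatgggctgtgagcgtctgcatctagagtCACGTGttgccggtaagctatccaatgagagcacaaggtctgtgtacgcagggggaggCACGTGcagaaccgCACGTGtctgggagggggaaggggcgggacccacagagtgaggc
It held 3 matches. Of all 32851 promoters, 1978 held at least 1 (6.02%), beside 5 of 17 matched clock genes (29.4%).

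Against vancomycin most tested fibroblast and smooth muscle genes were lower in the mix, while against the other drugs singly none was called. In bulk tissue fewer cells of a type and less RNA per cell cannot be told apart. Of 16 fibroblast and collagen genes, 9 fell against the mean of singles (median -1.26) and 15 against Vancomycin-IP (median -2.08), and 0 were called by limma against ampicillin, metronidazole or neomycin, where 5, 14 and 6 had an unadjusted p under 0.05. Of 20 smooth muscle genes, 2 fell against the mean of singles (median -1.33) and 18 against Vancomycin-IP (median -2.49). Of all tested genes 2.87% fell against the mean of singles and 22.3% against Vancomycin-IP. An unadjusted limma p under 0.05 was found in 946 of all 17083 genes for ampicillin, 3352 for metronidazole and 2141 for neomycin. With covariates the fibroblast median was -0.33 against the mean of singles, and no fibroblast gene stayed called. The muscle score is made of these same 20 smooth muscle genes, so the fit with covariates says nothing about them. Every Vancomycin-IP library had a higher muscle score than Mix-IP 2, 3, 4, 5 and 6. For other genes that vary with the score, that fit therefore cannot separate the drug from the score. The 9 became 0 without Mix-IP 2, 3, 4 or 5, 2 without Metronidazole-IP 3, 3 without Metronidazole-IP 4, 14 without Metronidazole-IP 2 and 15 without Mix-IP 1. They were 2 without the 12 libraries at the end of the table. The 2 smooth muscle genes became 0 without Ampicillin-IP 4, Metronidazole-IP 3 or 4, Mix-IP 2, 3, 4 or 5 or Neomycin-IP 5, and 18 without Mix-IP 1.

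Cnn1, a smooth muscle actin-binding protein, had 166 to 3400.2 (median 399) TPM in Mix-IP, 423 to 6038 (median 1550.0) in Ampicillin-IP and 566 to 4156 (median 826) in Neomycin-IP. Metronidazole-IP had 1406, 899.8, 4141 and 2393 TPM and Vancomycin-IP 5792, 6761, 5519 and 6026. Mix-IP 1 was the one high Mix-IP library, and all Vancomycin-IP libraries were above it. Cnn1 fell by 3.65 against Vancomycin-IP (SE 0.82, adjusted p = 0.00194) and by 2.11 against the mean of singles (SE 0.59, adjusted p = 0.0360). The smooth muscle actin gene Acta2 differed from the mean of singles by -1.49 (SE 0.49, adjusted p = 0.0617) and fell by 2.75 against Vancomycin-IP (adjusted p = 0.00335). Neither gene was called against PBS-IP, where Cnn1 differed by -1.05 (SE 0.82, adjusted p = 0.588) and Acta2 by -0.31 (SE 0.67, adjusted p = 0.905).

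Col1a1, a chain of type I collagen, had 35.3 to 290.0 (median 84.7) TPM in Mix-IP and 876, 656, 946 and 420.4 in Vancomycin-IP, without overlap. It fell by 3.00 against Vancomycin-IP (adjusted p = 0.00145) and by 1.65 against the mean of singles (adjusted p = 0.0347). Against the mean of singles, Fbln1 of the extracellular matrix fell by 1.79 (adjusted p = 0.0339), the neuropeptide gene Vip by 1.95 (adjusted p = 0.0365) and Ano1, the chloride channel of the interstitial cells of Cajal, by 1.66 (adjusted p = 0.0347). From PBS-IP, Col1a1, Fbln1, Vip and Ano1 differed by -0.73, -0.91, -1.70 and -1.61, and none was called (adjusted p = 0.638, 0.554, 0.273 and 0.209). Calls of Col1a1, Fbln1 and Ano1 against the mean of singles were lost without Metronidazole-IP 3 or 4 or Mix-IP 2, 3, 4 or 5, and those of Cnn1 and Vip also without Ampicillin-IP 4 or Neomycin-IP 5 (adjusted p up to 0.218). Without the 12 libraries at the end of the table these 5 were not called against the mean of singles, and Spon2 was. With covariates Col1a1, Fbln1, Vip and Ano1 were not called (adjusted p = 0.361, 0.210, 0.573 and 0.386), and Cnn1 is itself part of the muscle score. Spon2, a secreted matrix protein, fell by 2.02 (adjusted p = 0.00528), with 3.51 to 44.8 (median 10.1) TPM in Mix-IP. It differed from PBS-IP by -0.54 (SE 0.58, adjusted p = 0.740), which was not called. The calls of Cnn1, Acta2 and Col1a1 against Vancomycin-IP were lost without the libraries at the end of the table. The Spon2 call was kept with covariates (-0.94, adjusted p = 0.00661) and lost without Mix-IP 2 or 4 (adjusted p up to 0.0907).

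Of 19 genes of enteric neurons and glia, 1 fell against the mean of singles (median -0.69) and 9 against Vancomycin-IP (median -1.56). Of 6 genes of the interstitial cells of Cajal the counts were 1 (median -0.91) and 4 (median -1.87), and of 12 endothelial genes 1 (median -0.46) and 5 (median -0.64). Of all genes 2.87% and 22.3% were lower in these comparisons, so that 1 member of a list is no result about it. With covariates none of these members stayed called against Vancomycin-IP.

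Genes of bile acid uptake and drug metabolism were highest in a few libraries spread over the groups. Slc10a2, the apical bile acid transporter best known from the ileum, had 46.5, 680.5, 60.6, 519, 380.2 and 14.4 TPM in Mix-IP 1 to 6. In Ampicillin-IP it had 6.94 to 593 (median 10.02) TPM, in Neomycin-IP 2.65 to 376 (median 5.66), in Metronidazole-IP 7.41, 253, 2.58 and 2.52 and in Vancomycin-IP 5.75, 3.16, 1.73 and 0.947. The high libraries were Mix-IP 2, 4 and 5, Ampicillin-IP 6, Metronidazole-IP 2 and Neomycin-IP 1, and these had distal scores of 1.3, 1.24, 1.48, 1.46, 2.0 and 1.52. The PBS-IP library with the lowest distal score, PBS-IP 3 at 1.10, was also high, at 244 TPM. Vancomycin-IP 2 and Metronidazole-IP 3 had distal scores of 1.36 and 1.86 without high Slc10a2, and muscle scores of 11.2 and 11. The part of position along the gut in the result was not tested. Slc10a2 differed from the mean of singles by 3.60 (SE 1.12, adjusted p = 0.0524) and rose by 5.27 (SE 1.54, adjusted p = 0.00935) against Vancomycin-IP, where covariates gave 1.45 (adjusted p = 0.669) and the call was also lost without the libraries at the end of the table.

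Slc51a, a basolateral bile acid transporter subunit, had 443, 588 and 309.8 TPM in Mix-IP 2, 4 and 5 and 1.86 to 31.3 in the other 3. Ugt1a1, which conjugates bilirubin and drugs, and Car1, a carbonic anhydrase of surface colonocytes, were likewise higher in Mix-IP 2, 4 and 5 than in the other Mix-IP libraries. Against Vancomycin-IP these 3 rose by 4.99, 3.56 and 3.73 (adjusted p = 0.0419, 0.0364 and 0.0369). The 3 calls were lost without Mix-IP 2, 4 or 5 or Vancomycin-IP 1, 2 or 3 (adjusted p up to 0.0990, 0.0913 and 0.120), and those of Slc51a and Ugt1a1 also without Vancomycin-IP 4. They were also lost with covariates and without the libraries at the end of the table. With covariates Car1 had -0.12 (adjusted p = 0.981), the other direction. Of 8 tested bile acid genes, 0 were called by limma against the mean of singles (median 1.13, 4 at an unadjusted p under 0.05), and 5 rose and 1 fell against Vancomycin-IP (median 2.11, with covariates -0.06). Of 16 surface colonocyte genes, 5 rose against Vancomycin-IP (median 1.68) and 0 were called by limma against the mean of singles (median 0.95, 9 at an unadjusted p under 0.05). Of all tested genes 6.32% rose and 22.3% fell against Vancomycin-IP. Against the mean of singles, 4445 of all 17083 tested genes had an unadjusted limma p under 0.05. Car1, a defining gene of colonocytes, was at 69.8 TPM or more in every one of the 30 intraperitoneal libraries.

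Fkbp5, a chaperone partner of the glucocorticoid receptor and a target of it, had 163 to 421 (median 229) TPM in Mix-IP, 96.2 to 386 (median 161) in Ampicillin-IP and 52.3 to 225 (median 78.8) in Neomycin-IP. Metronidazole-IP had 36.1, 225, 36.1 and 30.5 TPM and Vancomycin-IP 31.0, 41.6, 27.5 and 31.7. Mix-IP overlapped every single-drug group except vancomycin. Fkbp5 rose by 1.83 (SE 0.40, adjusted p = 0.00900) against the mean of singles, lost without Mix-IP 2 or 4 (adjusted p up to 0.0974), and differed by 0.62 (SE 0.50, adjusted p = 0.951) from Ampicillin-IP. Of 14 glucocorticoid response genes 2 rose against the mean of singles (median 0.34), where 0.474% of all genes rose. Cyp4f14, a fatty acid hydroxylase, had 185 to 769 (median 294) TPM in Mix-IP, 166 to 792 (median 291) in Ampicillin-IP and 44.1, 209, 4.96 and 23.6 in Metronidazole-IP. The mix and ampicillin ranges overlapped, and the difference between them was 0.08 (SE 0.64, adjusted p = 0.992). Cyp4f14 was the 1 of 18 tested cytochrome P450 and conjugation genes that rose against the mean of singles (list median 0.93). Its rise was 1.95 (SE 0.52, adjusted p = 0.0339), lost without Metronidazole-IP 3 or 4 or Mix-IP 2, 3, 4 or 5 (adjusted p up to 0.180). With covariates neither gene was called against the mean of singles (adjusted p = 0.127 and 0.407).

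Of 17 heat shock and chaperone genes, 4 fell against the mean of singles (median -0.46) and 11 against Vancomycin-IP (median -0.89). Of all genes 2.87% and 22.3% fell in these comparisons. The list's mean log2(TPM + 1) was 6.26 in Mix-IP and 6.28 in PBS-IP, so the mix was at the level of the vehicle. It was 6.54 in Ampicillin-IP, 6.97 in Metronidazole-IP, 6.52 in Neomycin-IP and 7.47 in Vancomycin-IP. The inducible chaperone gene Hspa1a had 11 to 46.6 (median 16) TPM in Mix-IP and 16.7 to 50.8 (median 37.4) in Ampicillin-IP, 35.9, 207, 61.9 and 57.9 in Metronidazole-IP and 163, 61.7, 114 and 456 in Vancomycin-IP. Only the vancomycin libraries were all above the mix. Against the mean of singles Hspa1a fell by 1.54 (adjusted p = 0.0381), its cofactor Bag3 by 0.50 (adjusted p = 0.0340) and Ahsa1, which activates HSP90, by 0.53 (adjusted p = 0.0304). Each call was lost without Mix-IP 2, 3, 4 or 5, and that of Hspa1a also without Ampicillin-IP 4, Metronidazole-IP 3 or 4, Neomycin-IP 5 or Vancomycin-IP 4 (adjusted p up to 0.185). The count of 4 was 0 without Mix-IP 2, 3, 4 or 5. With covariates none stayed called (median -0.13).

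Of 13 tested crypt stem cell and Wnt target genes, 3 fell against the mean of singles (median -0.67) and 5 against Vancomycin-IP (median -0.65), beside 2.87% and 22.3% of all genes. Lrig1, a brake on growth factor receptors, had 33.8 to 116 (median 68.3) TPM in Mix-IP and 92.8 to 182 (median 127) in Neomycin-IP, and Smoc2 had 1.93 to 36.7 (median 18.8) and 11.6 to 74.6 (median 32.5). The ranges overlapped for both. Lrig1 fell by 0.95 and Smoc2 by 1.62 against the mean of singles (both adjusted p = 0.0339), lost without Metronidazole-IP 4 or Mix-IP 2, 4 or 5 and, for Lrig1, Mix-IP 3 (adjusted p up to 0.230 for Smoc2). Neither was called with covariates (adjusted p = 0.382 and 0.438). Of 20 proliferation genes 0 were called by limma in any of the 5 comparisons. Their medians were -0.01 for ampicillin, -0.58 for metronidazole, -1.09 for neomycin and 0.00 for vancomycin, with 15 at an unadjusted p under 0.05 for neomycin and 0 for the 3 others. For neomycin, 2141 of all 17083 tested genes had an unadjusted limma p under 0.05.

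Some genes set the mix apart from more than one drug. Lcmt1, which methylates protein phosphatase 2A, had 11.1 to 18.4 (median 13.4) TPM in Mix-IP, 14 to 22.1 (median 20.7) in Ampicillin-IP and 17.2 to 28.8 (median 24.9) in Neomycin-IP. Metronidazole-IP had 30.9, 24.3, 23.4 and 37.3 TPM and Vancomycin-IP 22.5, 19.8, 20.7 and 26.8. All metronidazole and vancomycin libraries were above the mix. Lcmt1 fell by 0.73 against the mean of singles (SE 0.14, adjusted p = 0.00305), a call that held without any 1 library and with covariates (adjusted p = 0.00868). It also fell by 1.02 against Metronidazole-IP (adjusted p = 0.00487, lost without Metronidazole-IP 4 at 0.0787). The difference was -0.46 (SE 0.18, adjusted p = 0.697) for Ampicillin-IP.

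Tcf21, a transcription factor of mesenchyme, fell by 1.41 against Metronidazole-IP (adjusted p = 0.0111), with 6.50 to 27.0 (median 11.1) TPM in Mix-IP and 30.0, 26.3, 37.0 and 38.7 in Metronidazole-IP. Only Mix-IP 1 reached the lowest metronidazole library. Pld3, a lysosomal nuclease, fell by 0.81 (adjusted p = 0.0144), with 17.9 to 31.7 (median 28.4) TPM in Mix-IP and 40.7, 42.4, 53.7 and 53.9 in Metronidazole-IP, without overlap. Both calls were lost without Metronidazole-IP 3 or 4 or Mix-IP 4, Tcf21 also without Mix-IP 2 and Pld3 without Mix-IP 3 (adjusted p up to 0.0907 and 0.132). With covariates the Pld3 call was lost (adjusted p = 0.0706) and that of Tcf21 kept (0.00732).

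Igfbp3, which binds insulin-like growth factors, had 7.65 to 34.2 (median 15.8) TPM in Mix-IP and 24.2 to 63.3 (median 40.1) in Ampicillin-IP, with overlap. It fell by 1.18 against Ampicillin-IP (SE 0.27, adjusted p = 0.0185), lost without Ampicillin-IP 1, 2 or 3 or Mix-IP 2, 3 or 4 (adjusted p up to 0.199). H1f0, a linker histone of resting cells, had 109.5 to 197 (median 174) TPM in Mix-IP and 229 to 594 (median 356) in Neomycin-IP, without overlap. It fell by 1.08 against Neomycin-IP (SE 0.23, adjusted p = 0.0166), lost without Mix-IP 3 or 4 or Neomycin-IP 2, 3, 4 or 6 (adjusted p up to 0.120).

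A gene lay beyond all 4 drugs where it differed from each in the same direction, with the largest of the 4 p-values kept. By limma 0 genes were called (0% of 17083), 149 had an unadjusted p under 0.05, and with array weights 243 were called. The next 3 genes were named after their values were seen. Pofut1, which adds fucose to Notch, had 23.2 to 36.1 (median 29.2) TPM in Mix-IP, 35.1 to 45.7 (median 38.9) in Ampicillin-IP and 40.7 to 45.8 (median 44.7) in Neomycin-IP. Metronidazole-IP had 40.7, 45.2, 43.7 and 43.9 TPM and Vancomycin-IP 49.7, 47.3, 44.9 and 41.1, so that only the ampicillin range overlapped with the mix. It fell by 0.55 against the mean of singles (adjusted p = 0.000206) and differed by -0.42 (SE 0.11, adjusted p = 0.0734) from Ampicillin-IP. Thbd, the thrombin receptor of endothelium, fell by 0.93 (adjusted p = 0.000285), with 4.14 to 12.9 (median 7.95) TPM in Mix-IP and 9.99 to 20.4 (median 13.6) in Ampicillin-IP. The levels overlapped in part. Rnf225, a RING finger protein, had 3.30 to 8.21 (median 4.48) TPM in Mix-IP, 0.210 to 1.41 (median 0.663) in Ampicillin-IP and 2.29 to 6.45 (median 4.13) in Neomycin-IP, and rose by 1.33 (SE 0.19, adjusted p = 6.74e-06) against the mean of singles. The mix and neomycin ranges overlapped for Rnf225. These 3 calls against the mean of singles held without any 1 library and with covariates (adjusted p = 0.00661, 0.00868 and 0.000437).

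Against PBS-IP, 47 genes differed (0.275%), 31 higher (0.181%) and 16 lower (0.0937%). With mitochondrial genes removed and TPM rescaled, 37 were higher and 38 lower. The count was 3 without PBS-IP 1, 4 without PBS-IP 2, 6 without PBS-IP 4, 7 without Mix-IP 4, 8 without Mix-IP 2, 14 without Mix-IP 5, 315 without Mix-IP 6 and 571 without PBS-IP 3. Of the 30 type I interferon genes 7 rose (median 1.12). Oas2 rose by 2.69 (SE 0.65, adjusted p = 0.0447), Oasl2 by 2.34 (SE 0.49, adjusted p = 0.0129), Ifi44 by 2.25 (SE 0.45, adjusted p = 0.00770) and Xaf1 by 1.13 (SE 0.26, adjusted p = 0.0326). PBS-IP 3, with 57.3 TPM of Oas2, lay within the Mix-IP range, and the 3 other PBS-IP libraries were below it. The list's count of 7 was 0 without PBS-IP 1, 2 or 4, 1 without Mix-IP 4, 2 without Mix-IP 2 or 5 and 20 without PBS-IP 3. These calls were lost without PBS-IP 1, 2 or 4, that of Oasl2 also without Mix-IP 4 and those of Oas2 and Xaf1 without Mix-IP 2, 4 or 5 (adjusted p up to 0.299 for Oas2 and 0.193 for Xaf1). Rnf225 rose by 1.47 (SE 0.26, adjusted p = 0.00105) and held without any 1 library.

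The same contrast was made for the oral (PO) and intravenous (IV) routes, with 30 and 26 libraries. The oral mix differed from the mean of the oral single drugs in 281 genes (1.64%), 250 higher (1.46%) and 31 lower (0.181%), and the intravenous mix in 1 (0.00585%). The difference between the IP and PO contrasts was called by limma in 0 genes (0%), with 761 at an unadjusted p under 0.05 and 338 called with array weights. For IP against IV the numbers were 0 (0%), 3327 and 5922, and 622 without Mix-IP 1 and 1 without Mix-IP 6. For Oas2 the contrast was 0.65 (SE 0.46, adjusted p = 0.445) by mouth and 0.97 (SE 0.47, adjusted p = 0.998) by vein. Ciart rose by 1.66 (SE 0.30, adjusted p = 0.00250) by mouth and had 1.29 (SE 0.31, adjusted p = 0.483) by vein, and the differences between routes were 0.15 (SE 0.43, adjusted p = 0.971) and 0.52 (SE 0.44, adjusted p = 0.484).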

How the data were processed

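Whole-colon poly(A) RNA was sequenced single-end, per the labels' protocols. The submitters' processing notes list Trim Galore 0.6.2, cutadapt 3.5, Salmon and the build GRCm39. No source used here gives Salmon's version or its strand setting, so a gene and an overlapping antisense gene cannot be told apart. The authors deposited TPM values, which keep no read total. Values were analysed as log2(TPM + 1), a scale that understates changes of low genes, in 1 limma 3.58.1 model (R 4.3.3, trend and robust) of all 97 libraries in 18 groups. Of 20457 genes, 17083 with at least 1 TPM in at least 4 libraries were tested, with Benjamini-Hochberg adjustment per comparison and a threshold of 0.05. The procedure was tested on simulated data. The simulation drew each gene independently, with no tissue difference shared by the genes of a library, so it says nothing about such shared variation.

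The groups and the 47 gene lists were chosen with earlier results of these data known, so no list is independent evidence. Genes were named by a rule: in the main comparison up to 10 rises and 10 falls, the largest among called genes at or above the median mean TPM, and up to 6 each way in each single-drug comparison. From each list up to 4 called members with the smallest p and up to 2 uncalled ones with the highest mean TPM could be named. Predicted genes, pseudogenes and receptor segments were left out. Only some of the genes allowed are named. Alternatives changed the pseudocount, the filter, the normalization, weights, blocks, covariates, mitochondrial genes, the libraries and the groups fitted; the muscle score alone and the means over 3 drugs were chosen after seeing the data.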

Additional observations from a re-analysis of the deposited data

Results flagged for a closer look

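In each group of 4 to 6 libraries the highest or lowest value was set against the gap to its neighbour (Dixon's criterion), for the named genes and both scores. Of 288 groups checked, 26 had a library standing apart, and chance alone marks about 1 in 20. Neomycin-IP 5 stood apart in 6, with the lowest Apol9b of its group at 38.4 TPM and the highest Cnn1 (4156 TPM), Acta2 (5769.8 TPM), Col1a1 (519.6 TPM), Hspa1a (154 TPM) and muscle score (10.5). Neomycin-IP 1 stood apart in 5, with the highest Fkbp5 (224.9 TPM), Car1 (14885 TPM), Slc10a2 (376 TPM), Slc51a (288 TPM) and Ugt1a1 (541 TPM).

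PBS-IP 3 also stood apart in 5, with Fkbp5 at 120.1 TPM, Slc10a2 at 244 TPM, Slc51a at 122 TPM, Pofut1 at 25.2 TPM and a distal score of 1.10. Ampicillin-IP 6 stood apart in 3, with Ano1 at 12.9 TPM, Bag3 at 39.2 TPM and Lrig1 at 31.2 TPM. Metronidazole-IP 2 had Fkbp5 at 224.8 TPM and Slc51a at 302 TPM. Single values stood apart for Isg15 in Metronidazole-IP 3 (3.56 TPM), Ifi27l2a in PBS-IP 1 (6.74 TPM), Nfil3 in Ampicillin-IP 2 (4.23 TPM), H1f0 in Mix-IP 4 (109.5 TPM) and the muscle score in Mix-IP 1 (10.7).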

How the results depend on the processing

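The count against the mean of singles, 571, was 129 with a pseudocount of 10, 122 after quantile normalization, 7310 with array weights, 27 with muscle and distal scores as covariates, 174 without the libraries at the end of the table, 158 with TPM rescaled without mitochondrial genes and 151 with the intraperitoneal groups fitted alone. Over ampicillin, metronidazole and neomycin only, it was 13, and 14 with both scores. For ampicillin, 55 became 4275 with array weights. For metronidazole, 81 became 4626 with weights, 47 with both scores, 253 with the muscle score alone and 144 with mitochondrial genes removed. For neomycin, 18 became 46 with a pseudocount of 10, 11 after quantile normalization, 4137 with weights, 68 with both scores, 232 with the muscle score alone and 1 with the intraperitoneal groups alone. For vancomycin, 4883 became 9426 with weights, 15 with both scores, 30 with the muscle score alone and 13 without the libraries at the end, where the lone Vancomycin-IP library is assumed to vary like the other groups. For PBS, 47 became 30 after quantile normalization, 6264 with weights, 253 with both scores, 539 with the muscle score alone, 71 without the libraries at the end, 75 with mitochondrial genes removed and 17 with the intraperitoneal groups alone. With weights the route differences were called in 338 (oral) and 5922 (intravenous) genes and 243 genes lay beyond all 4 drugs, and with either covariate set the oral difference was called in 2. The cause of these shifts was not tested.

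Leaving out 1 library gave 19 to 2753 against the mean of singles, 39 to 78 for ampicillin, 13 to 630 for metronidazole, 4 to 537 for neomycin, 2739 to 6095 for vancomycin, 3 to 571 for PBS, 0 to 622 for the intravenous difference, and 0 to 0 for the oral difference and beyond all 4. Distances ran from 0, the floor of the measure, to 0.273 for ampicillin, 0.292 to 0.578 for metronidazole, 0.198 to 0.422 for neomycin and 0.693 to 0.904 for vancomycin. Differences in library distance ran from -0.189 to 0.0236 for ampicillin less metronidazole, -0.0107 to 0.0642 for ampicillin less neomycin, -0.344 to -0.230 for ampicillin less vancomycin, 0.00796 to 0.220 for metronidazole less neomycin, -0.297 to -0.0846 for metronidazole less vancomycin and -0.386 to -0.242 for neomycin less vancomycin. With both scores the distance was 0.235 for ampicillin and 0.218 for vancomycin. For vancomycin it was 0.539 with a pseudocount of 10 and 0.425 as a median absolute difference. The difference between ampicillin and vancomycin was 0.00689 with both scores and -0.268 without the libraries at the end, and that between neomycin and vancomycin -0.0145 and -0.299.

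Of 119 called gene results, all kept their call with array weights and both blocks, 118 without the filter, 107 with a pseudocount of 10, 106 with mitochondrial genes removed, 99 with the intraperitoneal groups alone, 96 after quantile normalization, 77 with the muscle score alone, 65 without the libraries at the end and 60 with both scores. Of 31 calls against the mean of singles, 10 were kept over 3 drugs and 6 over 3 drugs with both scores. Ifi27l2a against the mean of singles turned to -0.00086 with a pseudocount of 10. Car1 turned to -0.28 with both scores and -0.33 with them over 3 drugs, and against vancomycin to -0.12 with both scores. Deviations of same-numbered libraries from their group means had a median correlation of -0.13 (-0.651 to 0.726), with 16 of 46 pairs over 0.1. The median was -0.07 for libraries with different replicate numbers. Differences in tissue composition also enter these deviations, so the check showed no pairing by replicate number but cannot exclude one. The replicate block gave 124 genes for metronidazole (122 by library number) and 102 for PBS, and ended no gene's call. Depth is unknown, so low levels carry no counting interval.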
